A study of Macaca mulatta with 27 samples.

Results

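The genes described here are those of the neurotransmitter-gated receptors, chosen by symbol and not by level. They are the genes named GRIA, GRIK, and GRID followed by 1 digit, GRIN1 to GRIN3, GRM followed by 1 digit, GABR, GLRA, GLRB, and the α, β, δ, ε, and γ subunits of CHRN. The rule found 64 genes among the 17967 gene symbols of the count tables. They comprise 4 AMPA, 4 kainate, 1 delta, 7 NMDA, and 8 metabotropic glutamate receptor genes, 19 GABA-A and rho receptor genes, 5 glycine receptor genes, and 16 nicotinic acetylcholine receptor genes. GRIK5 was not analysed here.

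Most of these genes encode subunits of ligand-gated ion channels. AMPA, kainate, and NMDA receptors are tetramers that admit cations when glutamate binds, whereas GABA-A, glycine, and nicotinic receptors are pentamers of related subunits, the first pair passing chloride and the last passing cations. Metabotropic glutamate receptors act through G proteins instead. The genes are best known from neurons, and muscle-type nicotinic subunits from the neuromuscular junction, but GABA-A subunits have also been described in pluripotent cells.

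RNA-seq gave 27 libraries of LyonES-tGFP-(S3), a rhesus monkey (Macaca mulatta) ESC line that carries a tau-GFP fusion under the CAG promoter and an inducible STAT3-ERT2 transgene. The groups were 6 libraries of primed cells and 3 libraries of cells reprogrammed toward naive pluripotency under one of 7 protocols, namely TL2i, TL-CDK8i, LCDM (EPS), t2iLGöY, 4i/L/b, NHSM-v, and E-NHSM. Each protocol is a medium of cytokines and kinase inhibitors. TL2i combines LIF, inhibitors of MEK and GSK3β, and tamoxifen, which activates STAT3-ERT2, and TL-CDK8i keeps LIF and tamoxifen but replaces those inhibitors with an inhibitor of CDK8 and CDK19. Every group is thus the same clonal line, all reprogrammed cells were passaged as single cells whereas primed cells were passaged in clumps, and nothing in the labels says that the 3 libraries of a protocol came from independent derivations, so p values measure the spread between these libraries only. The comparison of each protocol with primed cells asks how receptor transcripts differ once cells have been moved out of the primed medium.

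Total counts ranged from 7111886 to 20760914 per library. Levels are CPM, the count of a gene scaled to its library's total, after TMM normalization over all 27 libraries, and they compare libraries for one gene, not one gene with another, since no transcript lengths were used. A count of 0 was taken to allow up to 3 counts, which corresponds to 0.141 to 0.429 CPM depending on the library. These limits cover counting error only. In bulk RNA, fewer cells of a type and less RNA per cell cannot be told apart. Of 14 neuron markers, 12 were tested in E-NHSM, 13 in TL-CDK8i, and all 14 in the other comparisons. In E-NHSM cells 3 were higher and 3 lower, against 11.1% and 15.1% of all genes. In every other protocol 7 to 12 were higher and 0 to 3 lower, against 22.3% to 28.2% and 23.8% to 30.6% of all genes. TUBB3 and DCX were among those higher, whereas SYT1 was lower with 6 protocols, RBFOX3 with 3, and INA with 2. None of the 14 was at or under 3 counts in every library of any group, and their summed level was 370 to 464 CPM in primed cells, 325 to 366 CPM in E-NHSM cells, 663 to 690 CPM in TL2i cells, 1036 to 1318 CPM in TL-CDK8i cells, 1135 to 1269 CPM in 4i/L/b cells, 1814 to 1948 CPM in NHSM-v cells, 3220 to 3611 CPM in t2iLGöY cells, and 4777 to 5218 CPM in LCDM (EPS) cells. Of 10 pluripotency markers, all were above 3 counts in some library in primed, E-NHSM, and TL-CDK8i cells, whereas NANOG was at or under 3 counts in every library of LCDM (EPS), t2iLGöY, 4i/L/b, and NHSM-v cells, although these groups are labelled as naive-state protocols. The summed level of the list was 3285 to 3707 CPM in primed, 3720 to 3850 CPM in E-NHSM, 1322 to 1816 CPM in TL-CDK8i, and 443 to 513 CPM in TL2i cells, and 110 to 372 CPM in the other 4 groups. Fibroblast and mesenchyme markers, 12 genes, summed to 3422 to 5724 CPM in primed, 25009 to 30542 CPM in 4i/L/b, 24458 to 24703 CPM in NHSM-v, 17404 to 22504 CPM in TL-CDK8i, 10991 to 18063 CPM in TL2i, 7436 to 8289 CPM in t2iLGöY, 3378 to 4184 CPM in LCDM (EPS), and 1604 to 1687 CPM in E-NHSM cells, with LUM and DCN at or under 3 counts in primed, E-NHSM, and t2iLGöY cells. Neural crest markers, 8 genes, summed to 84.3 to 128 CPM in primed, 590 to 1091 CPM in t2iLGöY, 591 to 772 CPM in TL2i, 332 to 355 CPM in LCDM (EPS), 225 to 259 CPM in 4i/L/b, and 194 to 226 CPM in TL-CDK8i cells, and to 121 to 147 CPM in E-NHSM and 124 to 133 CPM in NHSM-v cells. Neural progenitor markers, 12 genes, summed to 2423 to 2763 CPM in primed, 1357 to 1490 CPM in E-NHSM, and 4249 to 4382 CPM in LCDM (EPS) cells, and to between 2030 and 2939 CPM in the other 5 groups, and SIX3 was at or under 3 counts in every library of all groups but NHSM-v and t2iLGöY. Sums are weighted toward the abundant genes of a list, and single genes can differ from them. Of the progenitor markers tested, 8 of 11 were higher and 1 lower in t2iLGöY cells, against 27.1% and 27.2% of all genes. In NHSM-v cells 6 of 10 were higher and 3 lower, against 28% and 30.6%. Of the mesenchyme markers, 4 of 10 tested were higher and 5 lower in t2iLGöY cells, against 27.1% and 27.2% of all genes. FOXD3, a crest marker, was lower with every protocol but TL2i, where it was higher. The part of these lists in the results below was not tested.

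Receptor transcripts were scarce in every group. They took 0.0361% to 0.0690% of the counts of a library. Between 24 and 40 of the 64 genes exceeded 3 counts in a primed library, against 40 or 41 in E-NHSM cells and 51 or 52 in TL2i cells. The primed library with 24 was J3, the one with the fewest counts in all, and the one with 40 was K2, the deepest primed library. Totals were 7111886 to 15183387 counts in primed, 17555947 to 20760914 in E-NHSM, and 13359671 to 19482749 in TL2i libraries. A cutoff of 3 counts is easier to pass in deeper libraries, so these numbers of genes are not adjusted for depth. CHRNA6 and GABRR2 had no count in any library, and GABRA6 and GABRR3 never exceeded 3 counts. GRIA1, GRIA3, GABRA5, GABRQ, and CHRNA5 were among the genes that exceeded 3 counts in all 27 libraries, and 26 of the 64 genes had no count in at least 4 of the 6 primed libraries.

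**Figure D1:**
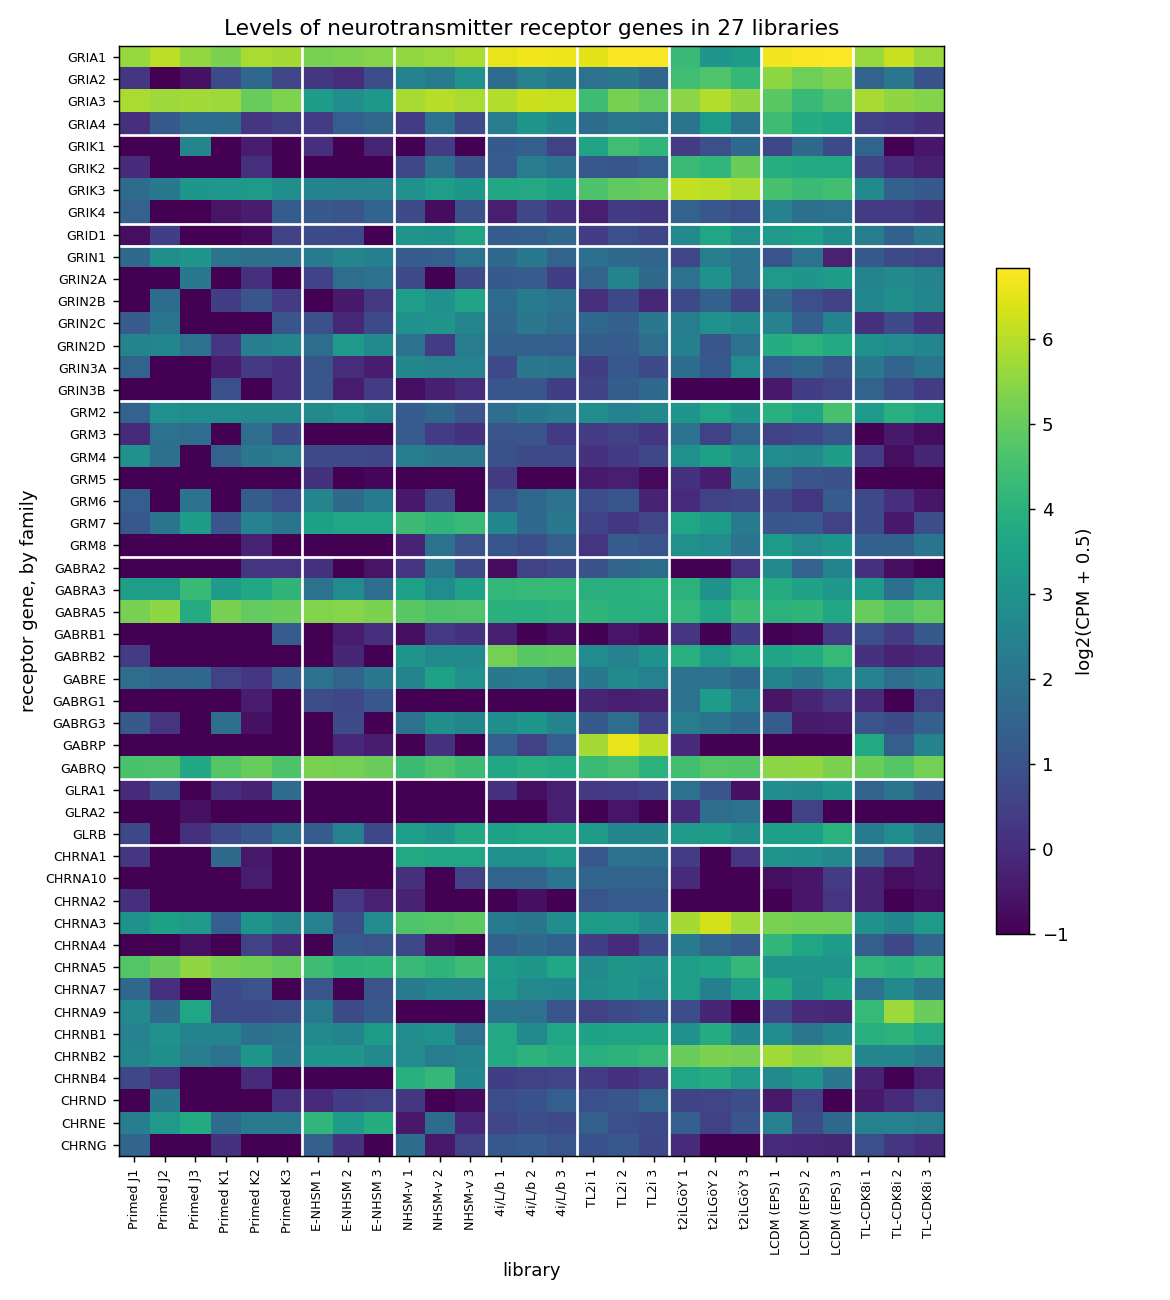
Levels of 50 receptor genes with a mean of at least 1 CPM in some group, as log2(CPM + 0.5), with 1 column per library and 1 row per gene. White lines separate the groups and the receptor families. GRIA1 is bright in 4i/L/b, TL2i, and LCDM (EPS) libraries, and GABRP is bright in the 3 TL2i libraries.

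A gene was called when edgeR's quasi-likelihood test against the 6 primed libraries gave a Benjamini-Hochberg adjusted p under 0.05 over all genes tested. Of the 64 genes, 54 had enough counts for a test in at least 1 comparison, 30 were tested in all 7, and 10 were tested in none. A gene at or near 0 in primed cells was tested only where a protocol raised it, so the counts and median fold changes below describe the genes tested. They are not evidence about the families.

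In E-NHSM cells, 7 of the 36 genes tested were called, against 26.2% of all genes. Of these, 2 were higher and 5 lower, where 11.1% of all genes were higher and 15.1% lower. In NHSM-v cells, 17 of 37 were called, against 58.6% of all genes. There, 12 were higher and 5 lower, against 28% and 30.6% of all genes.

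In 4i/L/b cells, 20 of 44 genes tested were called, against 55.6% of all genes, 15 of them higher and 5 lower, against 26.6% and 29%. In TL2i cells, 19 of 45 were called, against 50.7% of all genes, 13 higher and 6 lower, against 25.6% and 25.2%. In t2iLGöY cells, 19 of 44 were called, against 54.3% of all genes, 14 higher and 5 lower, against 27.1% and 27.2%. In these 3 groups, as in NHSM-v cells, the share of receptor genes called lay below that of all genes, and calls upward outnumbered calls downward.

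LCDM (EPS) cells had the most calls, 27 of 45 genes tested, against 57.1% of all genes. Of these 22 were higher and 5 lower, against 28.2% and 28.9% of all genes. In TL-CDK8i cells, 14 of 37 were called, against 46.1% of all genes, 7 higher and 7 lower, against 22.3% and 23.8%. The median log2 fold change of the receptor genes tested was 1.66 in LCDM (EPS) cells and 0.61 in TL-CDK8i cells, where the median over all genes tested was 0.03 and 0.02. In the other comparisons it ranged from 0.12 in E-NHSM cells to 1.13 in t2iLGöY cells. Because genes near 0 in primed cells entered only where a protocol raised them, these medians are shifted upward by the filter.

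In all, 44 of the 54 genes tested were called in at least 1 comparison, against 84.7% of the 14444 genes tested at least once. Of these, 30 were only ever higher than in primed cells (34.6% of all genes tested), 8 only ever lower (28.2%), and 6 were higher with one protocol and lower with another (21.8%). The 7 comparisons share their primed libraries. CHRNA5 was among the genes lower with all 7 protocols (2.46% of all genes), no receptor gene was higher with all 7 (0.692% of all genes), and GRIK2, GABRB2, and GLRB were higher with 5. When the 7 protocols were compared with one another without primed cells, 49 of the 54 receptor genes tested differed among them, against 90.9% of all genes tested, and 49 also had an unadjusted p under 0.05.

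**Figure D2:**
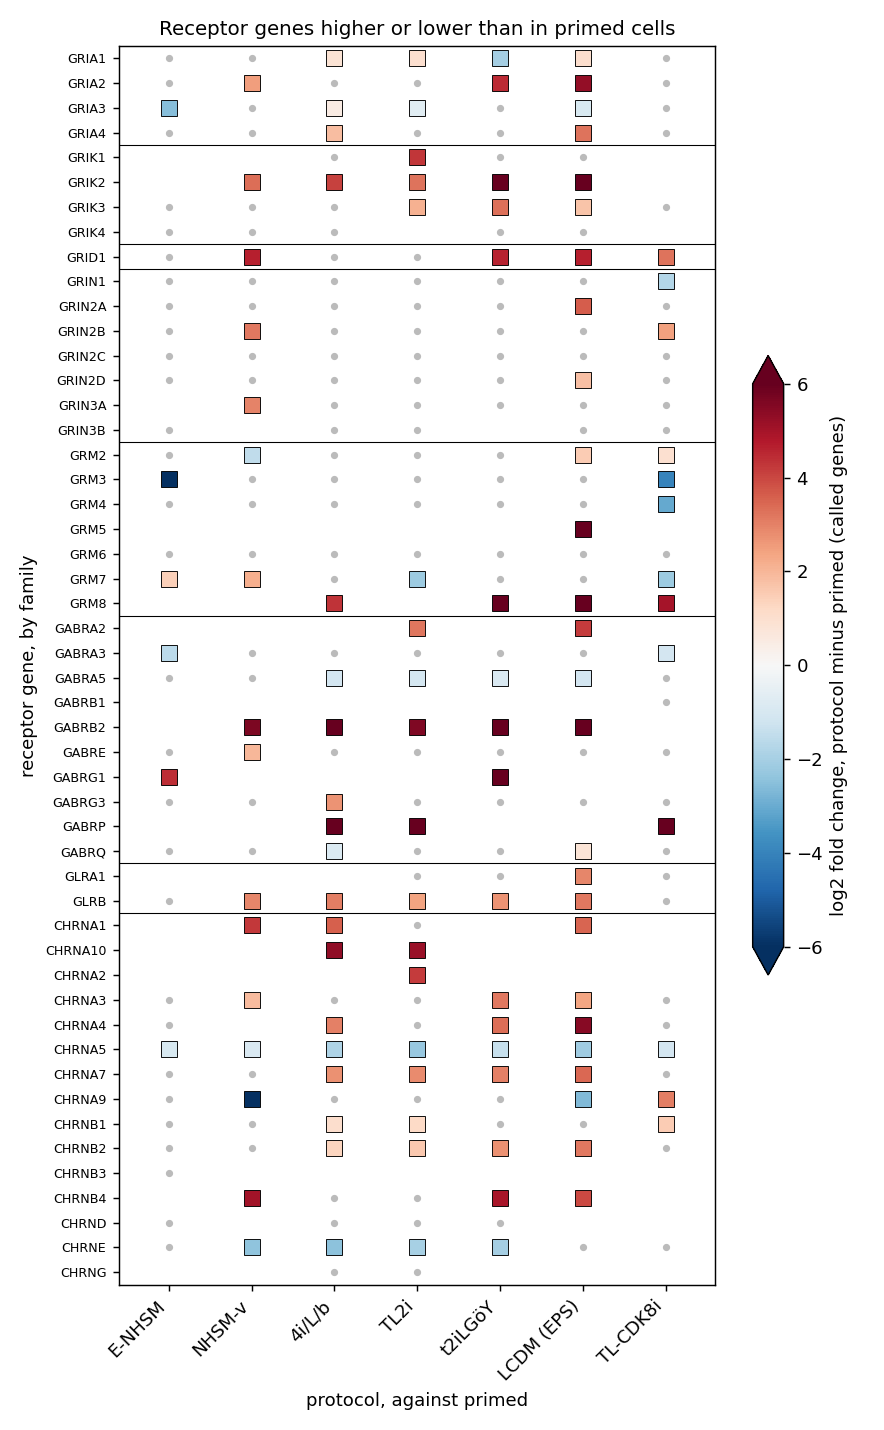
Log2 fold change against primed cells of 50 receptor genes tested at least once, with 1 column per protocol. Squares are genes called at an adjusted p under 0.05, coloured by fold change with the scale cut at 6, grey points were tested and not called, and blanks were not tested. CHRNA5 has a square on the blue side of the scale in all 7 columns, and GABRB2 is red in 5.

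Primed libraries carry the letter J or K in the deposited tables, 3 of each. None of the 26 receptor genes tested between the letters was called by edgeR, against 3.73% of all genes, and 4 had an unadjusted p under 0.05.

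The AMPA receptor genes encode the subunits of the fast excitatory glutamate channel, and all 4 were called with some protocol, as were 84.7% of all genes tested. GRIA1 had a lowest, median, and highest primed level of 39.0, 51.9, and 66.6 CPM. It was 95.3, 101, and 99.7 CPM in 4i/L/b cells, 92.0, 111, and 111 CPM in TL2i cells, and 104, 109, and 114 CPM in LCDM (EPS) cells, all above the primed range. In t2iLGöY cells it was 19.2, 8.27, and 9.54 CPM, below that range. The log2 fold changes were 0.88 ± 0.14 (SE) in 4i/L/b, 1.00 ± 0.15 in TL2i, 1.07 ± 0.14 in LCDM (EPS), and -2.05 ± 0.27 in t2iLGöY cells, with edgeR adjusted p of 0.00013, 6.8e-05, 1.8e-05, and 1.4e-05. These 4 calls held without any single library.

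GRIA2 encodes the subunit that makes AMPA channels impermeable to calcium once its transcript is edited. It was near 0 in primed cells, at 0, 0.867, and 2.56 CPM for the lowest, median, and highest library. It reached 21.1, 25.2, and 18.1 CPM in t2iLGöY cells and 44.9, 34.3, and 39.7 CPM in LCDM (EPS) cells, with log2 fold changes of 4.45 ± 0.67 (adjusted p = 5.1e-05) and 5.27 ± 0.56 (adjusted p = 2e-06). Without primed library K2, the highest of the 6, these values became 5.04 and 5.89. In NHSM-v cells it was 5.07, 4.22, and 7.31 CPM (2.49 ± 0.93, adjusted p = 0.032), a call that was lost when any of the 3 NHSM-v libraries was left out (adjusted p 0.061 to 0.13) and became 3.13 without K2. GRIA2 thus joined GRIA1 in LCDM (EPS) cells but moved opposite to it in t2iLGöY cells.

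GRIA3 had a primed level of 32.1, 51.1, and 57.4 CPM. It fell furthest in E-NHSM cells, at 9.33, 6.73, and 8.56 CPM, a log2 fold change of -2.53 ± 0.22 (adjusted p = 1.4e-07). It was also lower in LCDM (EPS) cells, at 27.9, 19.3, and 24.7 CPM (-0.98 ± 0.20, adjusted p = 0.0009). E-NHSM was the protocol with the fewest receptor genes called, and GRIA3 was the AMPA gene called there. In TL2i cells GRIA3 had a log2 fold change of -0.69 ± 0.22 (adjusted p = 0.017) and in 4i/L/b cells one of 0.48 ± 0.17 (adjusted p = 0.027). Both calls were sensitive to leaving out 1 library. The first was lost without TL2i library 1 or 3 (adjusted p 0.051 to 0.11, log2 fold change -0.71 to -0.48). The second was lost without 4i/L/b library 2 or 3 (adjusted p 0.081 to 0.11, log2 fold change 0.43 to 0.47).

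GRIA4 was low in primed cells, at 0.558, 1.36, and 2.91 CPM, and rose to 20.8, 14.0, and 12.0 CPM in LCDM (EPS) cells (log2 fold change 3.28 ± 0.52, adjusted p = 9.6e-05). In 4i/L/b cells it was 4.42, 7.78, and 5.87 CPM (1.85 ± 0.65, adjusted p = 0.028), a call lost without 4i/L/b library 2 or 3 (adjusted p 0.081 to 0.13). LCDM (EPS) was thus the protocol in which 3 AMPA genes rose and 1 fell.

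Kainate receptors are glutamate channels that also act presynaptically. GRIK3 was present in primed cells at 2.90, 7.64, and 9.05 CPM and rose to 69.4, 66.7, and 58.7 CPM in t2iLGöY cells, to 24.6, 30.2, and 31.5 CPM in TL2i cells, and to 23.2, 19.6, and 21.8 CPM in LCDM (EPS) cells. Its log2 fold changes were 3.31 ± 0.29, 2.11 ± 0.31, and 1.70 ± 0.33, with adjusted p of 1.5e-07, 7.8e-05, and 0.00059. None of these libraries overlapped the primed range, and the calls held without any single library.

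GRIK2 was at 0 in 4 of the 6 primed libraries and at 0.447 and 0.553 CPM in J1 and K2, and it was called higher with 5 protocols. It was 19.6, 17.3, and 32.9 CPM in t2iLGöY cells and 14.2, 13.0, and 13.2 CPM in LCDM (EPS) cells. There the log2 fold changes were 6.94 ± 0.76 (adjusted p = 2.1e-06) and 6.15 ± 0.86 (adjusted p = 3.2e-05), and without K2 they became 7.95 and 7.16, since that library held most of the primed counts. In TL2i, 4i/L/b, and NHSM-v cells it lay between 1.13 and 4.38 CPM. The call in NHSM-v cells (3.34, adjusted p = 0.041) was lost without J2, K1, K3, or any NHSM-v library (adjusted p 0.0502 to 0.19), and was 4.29 without K2. That in TL2i cells (3.26, adjusted p = 0.038) was lost without J2, K3, or any TL2i library (adjusted p 0.052 to 0.12), and was 4.19 without K2. That in 4i/L/b cells (4.08, adjusted p = 0.0094) was lost without 4i/L/b library 2 (adjusted p = 0.05001), and was 5.01 without K2. No E-NHSM library had a GRIK2 count.

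GRIK1 was called with 1 protocol. TL2i libraries held 11.5, 20.9, and 17.5 CPM, whereas the libraries of the other 6 protocols held at most 2.78 CPM, and the level differed among protocols (edgeR adjusted p = 2.6e-06). Of the primed libraries, 4 were at 0 and J3 was at 5.43 CPM. The log2 fold change in TL2i cells was 4.29 ± 1.17 (adjusted p = 0.0075), and it became 7.72 without J3. GRIK4 was tested in 5 comparisons and called in none, its highest mean being 3.88 CPM in LCDM (EPS) cells.

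GRID1 encodes a delta subunit, which binds cerebellin and neurexin at synapses rather than acting as a typical glutamate channel. Its primed level was 0, 0.0904, and 0.975 CPM. It was 8.01, 7.61, and 11.4 CPM in NHSM-v, 6.003, 11.9, and 7.22 CPM in t2iLGöY, 8.88, 10.3, and 6.93 CPM in LCDM (EPS), and 4.36, 2.23, and 3.77 CPM in TL-CDK8i cells, all above the primed range. The log2 fold changes were 4.66 ± 0.98, 4.61 ± 1.02, 4.64 ± 0.95, and 3.25 ± 1.12, with adjusted p of 0.00077, 0.0014, 0.0008, and 0.028, and without K3, the highest primed library, they became 5.41, 5.28, 5.37, and 3.96. The call in TL-CDK8i cells was lost without any one of its 3 libraries (adjusted p 0.066 to 0.11).

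**Figure D3:**
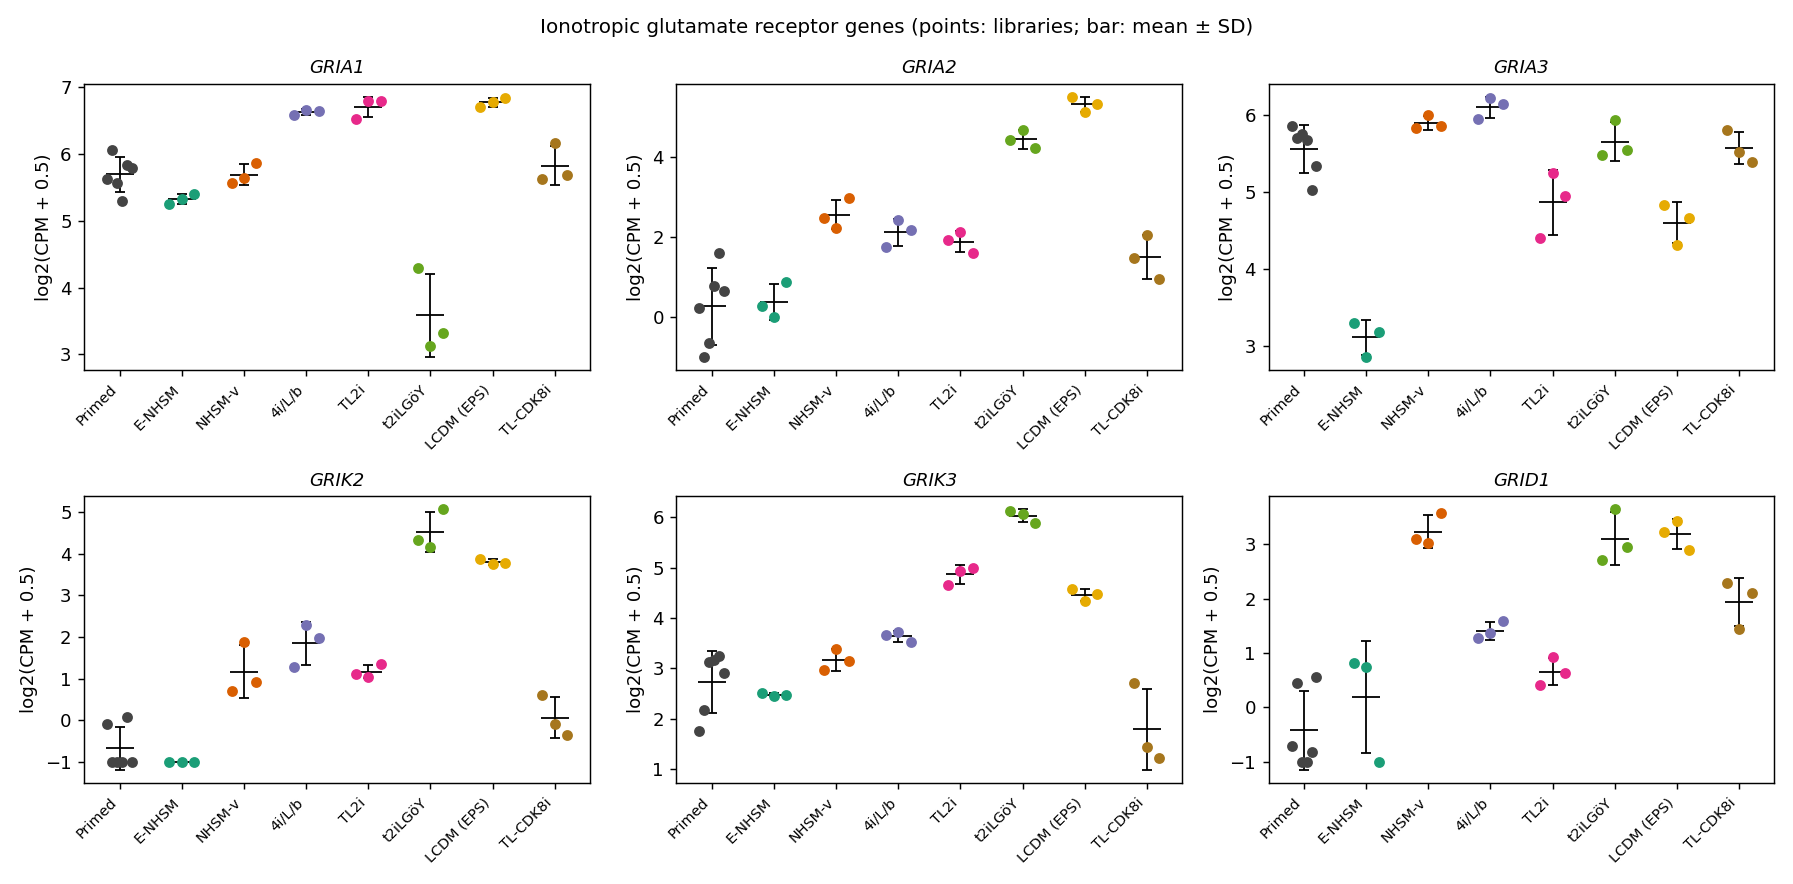
Levels of GRIA1, GRIA2, GRIA3, GRIK2, GRIK3, and GRID1 as log2(CPM + 0.5), with 1 point per library and the mean ± SD of each group as a bar. GRIA1 is lowest in t2iLGöY cells, where GRIA2, GRIK2, and GRIK3 lie above all primed libraries, and GRIA3 is lowest in E-NHSM cells.

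NMDA receptors pair the obligate subunit encoded by GRIN1 with GRIN2 or GRIN3 subunits. Of the 7 genes, all tested, 5 were called with some protocol, against 84.7% of all genes, and no more than 2 with any one of them, where 26.2% to 58.6% of all genes were called. GRIN2D, at 0.685, 4.88, and 5.50 CPM in primed cells, rose to 13.8, 15.8, and 13.3 CPM in LCDM (EPS) cells (log2 fold change 1.80 ± 0.46, adjusted p = 0.0043), a call that held without any single library. GRIN2B, at 0, 0.827, and 2.91 CPM in primed cells, was 10.04, 7.30, and 11.4 CPM in NHSM-v cells (3.17 ± 0.90, adjusted p = 0.0069), and 3.81 without J2. The GRIN2D and GRIN2B genes were thus called with different protocols.

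In TL-CDK8i cells GRIN2B was 5.51, 7.02, and 5.61 CPM (2.48 ± 0.96, adjusted p = 0.048). This call was lost without any single library other than J1, J2, and J3 (adjusted p 0.058 to 0.16) and was 3.09 without J2. GRIN2A was 8.82, 8.15, and 9.53 CPM in LCDM (EPS) cells and 5.16, 5.91, and 5.12 CPM in TL-CDK8i cells, but 1 primed library, J3, held 4.00 CPM while 4 others were at 0. Its log2 fold change in LCDM (EPS) cells was 3.63 ± 1.25 (adjusted p = 0.023), 5.98 without J3, and was not called without any 1 of the LCDM (EPS) libraries (adjusted p 0.054 to 0.069). In TL-CDK8i cells it was 2.84 ± 1.33 (adjusted p = 0.097).

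GRIN3A was 5.86, 4.84, and 5.02 CPM in NHSM-v cells, against 0, 0.394, and 2.35 CPM in primed cells (2.96 ± 1.05, adjusted p = 0.025). That call was lost without any of the NHSM-v libraries (adjusted p 0.064 to 0.08), and the value was 3.97 without J1. GRIN1 itself was not called among the 7 protocols (edgeR adjusted p = 0.17), and it was 1.84, 1.23, and 1.06 CPM in TL-CDK8i cells against 2.68, 3.34, and 8.0 CPM in primed cells (-1.77 ± 0.65, adjusted p = 0.037), a call lost without J2 or any TL-CDK8i library (adjusted p 0.064 to 0.14). GRIN1 lies outside the rule for named genes and is given as the obligate subunit, chosen after its values were seen. GRIN2C and GRIN3B were tested in 7 and 5 comparisons and called in none.

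Metabotropic glutamate receptors fall into group I, GRM5 among it, which raises calcium through phospholipase C, and groups II (GRM2 and GRM3) and III (GRM4, GRM6, GRM7, and GRM8), which lower cyclic AMP. GRM5 had no count in any primed library and was 2.39, 1.60, and 1.41 CPM in LCDM (EPS) cells (adjusted p = 0.0022), a mean at least 5.94-fold higher, taking 3 counts in each primed library.

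GRM8 was at 0 in 5 primed libraries and had 5 counts in K2. It was 9.22, 6.32, and 8.12 CPM in LCDM (EPS), 7.16, 6.40, and 3.47 CPM in t2iLGöY, 2.18, 2.23, and 3.67 CPM in TL-CDK8i, and 1.63, 1.34, and 2.12 CPM in 4i/L/b cells, with adjusted p of 7e-05, 0.00048, 0.0037, and 0.008. Its log2 fold changes of 6.61, 6.18, 5.0, and 4.35 became 9.70, 9.03, 7.66, and 7.03 without K2. No primed count remained without K2, so the latter values come from the fit and are not measured fold changes. Group III thus included a gene called higher with all 4 protocols in which it was tested, from a level near 0. GRM8 did not have enough counts for a test in NHSM-v cells, at 0.338 to 3.29 CPM, or in TL2i cells, at 0.637 to 1.92 CPM. Their means of 1.71 and 1.37 CPM were near the mean of 1.70 CPM in 4i/L/b cells, so the 4 calls also reflect which comparisons were tested. The TL2i libraries all lay above the highest primed library, at 0.346 CPM, and E-NHSM cells had no GRM8 count.

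GRM3 was patchy in primed cells, from 0 in K1 to 3.34 CPM in J2, and had no count in the 3 E-NHSM libraries. The primed mean of 1.83 CPM was at least 11.7-fold higher, taking 3 counts in each E-NHSM library (adjusted p = 0.015). This limit is on the mean and not on each primed library. The call was lost without any E-NHSM library (adjusted p 0.051 to 0.054). In TL-CDK8i cells its 3 libraries held 3 counts together, and the ratio of primed to TL-CDK8i summed counts was 16.9, with an exact 95% interval of 5.62 to 83.0. That interval covers counting error only and not the spread between libraries, and primed libraries held from 0 to 43 counts. The fall in TL-CDK8i cells had an adjusted p of 0.045. Its call was lost without J2, K2, K3, or any TL-CDK8i library (adjusted p 0.051 to 0.16). The fitted value of -4.00 became -4.91 without TL-CDK8i library 2.

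GRM2, GRM4, and GRM7 lie outside the rule for named genes and were chosen after their values were seen, because GRM2 and GRM7 moved both ways and GRM4 was another gene called. GRM7 was 1.63, 3.60, and 9.43 CPM in primed cells, 20.2, 16.9, and 19.3 CPM in NHSM-v cells (2.16 ± 0.47, adjusted p = 0.00097), and 0.980, 0.699, and 1.06 CPM in TL2i cells (-2.18 ± 0.75, adjusted p = 0.027). The rise in NHSM-v cells held without any single library, and the fall in TL2i cells was lost without any TL2i library (adjusted p 0.069 to 0.096). Its call in E-NHSM cells (1.45, adjusted p = 0.032) was lost without J1, J2, K3, or any E-NHSM library (adjusted p 0.053 to 0.11). That in TL-CDK8i cells (-2.16, adjusted p = 0.047) was lost without J2, J3, K2, K3, or any TL-CDK8i library (adjusted p 0.057 to 0.17). GRM2 was higher in LCDM (EPS) cells by 1.52 ± 0.36 (adjusted p = 0.0023), which held throughout. Its call in NHSM-v cells (-1.54, adjusted p = 0.028) was lost without J2, K1, K2, K3, or NHSM-v library 1 or 3 (adjusted p 0.0501 to 0.096), and that in TL-CDK8i cells (0.97, adjusted p = 0.047) without K2, K3, or TL-CDK8i library 2 or 3 (adjusted p 0.055 to 0.22). GRM4 was lower in TL-CDK8i cells (-3.05, adjusted p = 0.043), a call lost without any single library other than J3 and K1 (adjusted p 0.056 to 0.16), the value being -3.78 without TL-CDK8i library 1. GRM6 was tested in all 7 comparisons and called in none.

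GABA-A receptors are chloride channels built mostly of α, β, and γ subunits. GABRB2 encodes a β subunit. It was at 0 in 5 primed libraries and at 0.782 CPM, 7 counts, in J1. It was 36.5, 27.1, and 28.8 CPM in 4i/L/b, 14.7, 8.67, and 13.1 CPM in t2iLGöY, 11.5, 13.4, and 18.6 CPM in LCDM (EPS), 8.01, 6.17, and 6.25 CPM in NHSM-v, and 6.52, 5.01, and 7.57 CPM in TL2i cells. In E-NHSM and TL-CDK8i cells it stayed between 0 and 0.573 CPM and was not tested. GABRB2 was thus above every primed library in 5 groups. The other pair, E-NHSM and TL-CDK8i cells, were also the reprogrammed groups in which each of the 10 pluripotency markers exceeded 3 counts in some library. In TL2i cells UTF1 alone did not. In TL-CDK8i cells 9 of the 10 were nevertheless called lower than in primed cells, against 23.8% of all genes. A link between GABRB2 and these markers was not tested.

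The adjusted p of GABRB2 were 8.7e-07, 0.0001, 3.2e-05, 0.00097, and 0.0014 in the same order. Its fitted log2 fold changes of 7.88, 6.57, 6.84, 5.65, and 5.60 became 11.29, 10.22, 10.66, 9.17, and 9.38 without J1, which held all primed counts. The latter values were thus fitted against no primed count and are not measured fold changes. All 5 calls held without any single library. GABRB1, another β subunit gene, was tested in 1 comparison and not called, at 1.38, 0.780, and 1.84 CPM in TL-CDK8i cells.

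GABRP encodes the π subunit, known from epithelia and reproductive tissues more than from brain. No primed library had a GABRP count. TL2i cells held 54.5, 93.3, and 66.6 CPM, a mean at least 236-fold above primed cells when 3 counts are taken in each primed library (adjusted p = 4.2e-08). TL-CDK8i cells held 13.0, 2.12, and 5.12 CPM, a mean at least 22.2-fold above (adjusted p = 0.00029). In 4i/L/b cells it was 2.02, 0.972, and 2.02 CPM, a mean at least 5.51-fold above (adjusted p = 0.0025). In the other 4 protocols no library exceeded 0.617 CPM, and the level differed among the protocols (adjusted p = 1.6e-13). TL2i and TL-CDK8i are the protocols with tamoxifen, which cannot be told apart from the rest of each medium. The TL2i and TL-CDK8i calls held without any single library, and the 4i/L/b call held in the 4 of 9 fits in which GABRP was still tested. The fitted TL-CDK8i value of 9.06 became 8.19 without its library 1. These fitted values are against no primed count and are not measured fold changes.

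Among the other GABA-A genes, GABRG1 was above 1 CPM in 2 groups, at 3.27, 9.67, and 4.70 CPM in t2iLGöY and at 1.32, 1.11, and 1.67 CPM in E-NHSM cells, with 4 counts in primed library K2 and none in the other 5. The log2 fold change in t2iLGöY cells was 6.49 ± 1.19 (adjusted p = 0.00029) and 9.08 without K2. That in E-NHSM cells was 4.41 ± 1.5 (adjusted p = 0.037), was lost without any single library except J3 and K2 (adjusted p 0.055 to 0.13), and was 7.19 without K2. No primed GABRG1 count remained without K2, so 9.08 and 7.19 come from the fit and are not measured fold changes. GABRA2 was 5.97, 2.26, and 5.25 CPM in LCDM (EPS) cells (4.20 ± 1.17, adjusted p = 0.0073) and 1.42, 2.45, and 2.90 CPM in TL2i cells (3.21 ± 1.22, adjusted p = 0.041), while 4 primed libraries were at 0 and K2 and K3 at 0.691 and 0.621 CPM. Without K2 these values were 4.96 and 3.97, and the TL2i call was lost without J1, J2, K1, or any TL2i library (adjusted p 0.0505 to 0.14).

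GABRG3 was 6.63, 8.14, and 5.20 CPM in 4i/L/b cells, against 0, 0.393, and 3.25 CPM in primed cells (2.71 ± 1.07, adjusted p = 0.045). The call was lost without J2, K2, or any 4i/L/b library (adjusted p 0.069 to 0.14), and the value was 3.68 without K1. GABRA5, named after its values were seen, was 13.7, 34.8, and 44.8 CPM in primed cells and 15.4, 15.3, and 16.3 CPM in 4i/L/b cells. Its log2 fold change was -1.10 in 4i/L/b, -1.07 in TL2i, -1.11 in LCDM (EPS), and -0.93 in t2iLGöY cells (adjusted p of 0.0048, 0.006, 0.0049, and 0.017). Primed library J3, at 13.7 CPM, overlapped these groups, and the other 5 primed libraries, at 30.3 CPM or more, did not. The t2iLGöY call was lost without its library 2 (adjusted p = 0.087).

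In the RefSeq annotation of the rhesus assembly T2T-MMU8v2.0, used for gene order only, GABRG3 and GABRA5 are consecutive protein-coding genes on chromosome 7. In 4i/L/b cells GABRA5 fell while GABRG3 rose. GABRG1 and GABRA2 are also consecutive, but no protocol had enough counts to test both. In contrast, GLRB and GRIA2, consecutive on chromosome 5, were both called higher in NHSM-v, t2iLGöY, and LCDM (EPS) cells. GLRB alone was called in 4i/L/b and TL2i cells. Neither the build nor the annotation behind the counts is given in the sources used here, so positions are not stated.

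**Figure D4:**
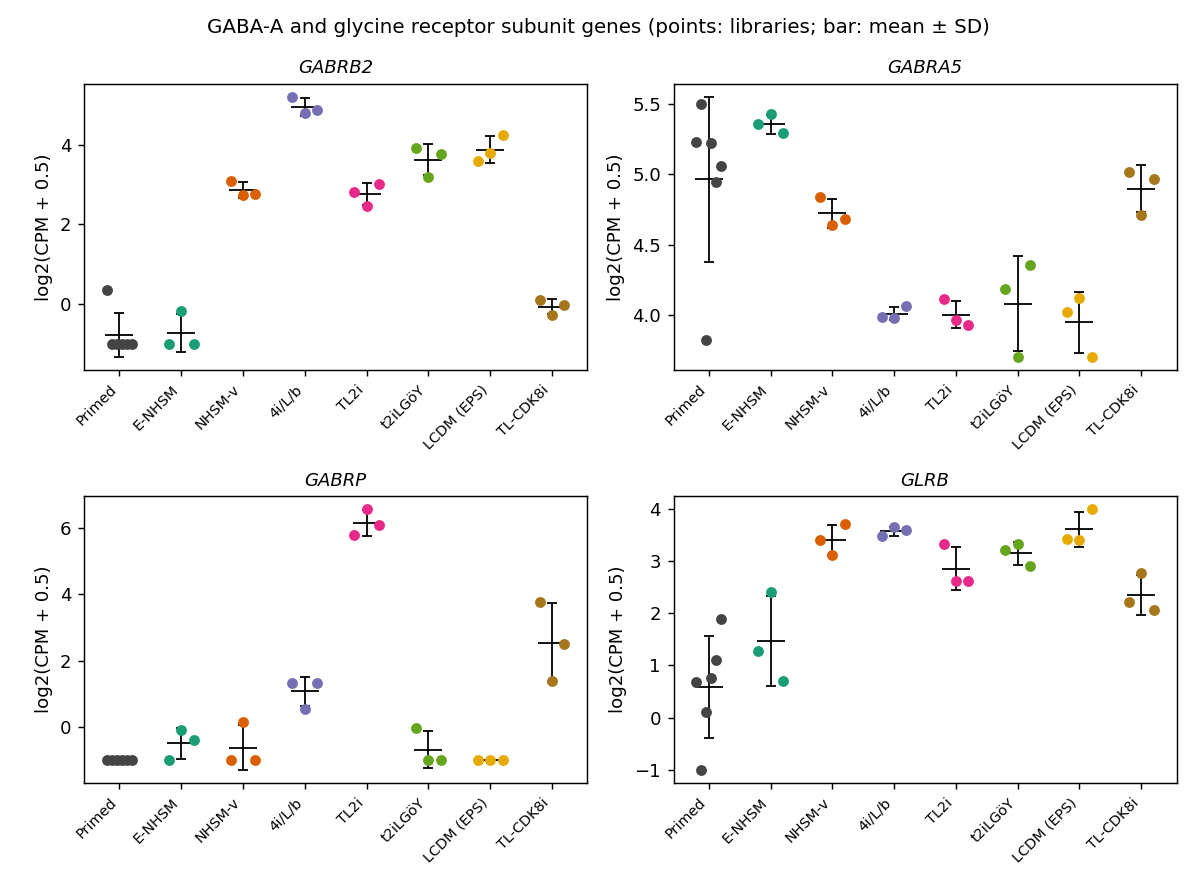
Levels of GABRB2, GABRA5, GABRP, and GLRB as log2(CPM + 0.5), with 1 point per library and the mean ± SD of each group as a bar. GABRB2 and GLRB lie above every primed library in LCDM (EPS), t2iLGöY, TL2i, 4i/L/b, and NHSM-v cells, and GABRP is highest in the 3 TL2i libraries.

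Of the remaining GABA-A and rho genes, GABRE, GABRA3, and GABRQ are called genes that the rule left out, and they are named after their values were seen. GABRE rose in NHSM-v cells (1.99 ± 0.60, adjusted p = 0.0098, lost without NHSM-v library 2 at an adjusted p of 0.082). GABRA3 fell in E-NHSM cells (-1.63 ± 0.38, adjusted p = 0.0036) and in TL-CDK8i cells (-1.09, adjusted p = 0.031, lost without K3 or TL-CDK8i library 2 or 3 at adjusted p of 0.066 to 0.16). GABRQ rose in LCDM (EPS) cells (0.83 ± 0.22, adjusted p = 0.0049) and fell in 4i/L/b cells (-0.88 ± 0.25, adjusted p = 0.0088, lost without 4i/L/b library 1 at an adjusted p of 0.057). GABRA4, GABRA6, GABRD, GABRR1, GABRR2, and GABRR3 were never tested, their highest group mean being 0.575 CPM.

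Glycine receptors are chloride channels of α subunits with a β subunit that binds gephyrin. GLRB, the β subunit gene, was 0, 1.16, and 3.19 CPM in primed cells and was called higher with 5 protocols. It was 10.3, 10.1, and 15.4 CPM in LCDM (EPS), 10.7, 12.0, and 11.6 CPM in 4i/L/b, 10.04, 8.23, and 12.6 CPM in NHSM-v, 8.80, 9.54, and 7.01 CPM in t2iLGöY, and 9.56, 5.65, and 5.66 CPM in TL2i cells, all above the primed range. Log2 fold changes ran from 2.40 ± 0.79 in TL2i cells (adjusted p = 0.02) to 3.18 ± 0.71 in LCDM (EPS) cells (adjusted p = 0.0016). The TL2i call was lost without any TL2i library (adjusted p 0.0504 to 0.12), and the other 4 held. In TL-CDK8i cells GLRB was 4.13, 6.35, and 3.67 CPM (1.80 ± 0.87, adjusted p = 0.11).

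Of the α subunit genes, GLRA1 was 6.66, 6.08, and 8.01 CPM in LCDM (EPS) cells, against 0, 0.480, and 2.84 CPM in primed cells (2.93 ± 0.85, adjusted p = 0.0089), and 3.77 without K3, the highest primed library. GLRA2, GLRA3, and GLRA4 were not tested against primed cells. GLRA2 is named after its values were seen for its 7, 45, and 46 counts in the t2iLGöY libraries, where 5 of 6 primed libraries had none and the sixth had 1. In the other 4 protocols with a GLRB call, GLRA1 was tested and not called in TL2i and t2iLGöY cells and was not tested in 4i/L/b or NHSM-v cells.

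Nicotinic subunits of neuronal type are numbered from α2 to α10 and from β2 to β4, whereas the receptor of muscle combines α1, β1, δ, and ε or γ. Of the 16 genes, 12 were called with some protocol, where 84.7% of all genes tested were. Among neuronal subunits, CHRNA4 was 0, 0.0714, and 0.968 CPM in primed cells and rose to 17.2, 12.0, and 9.42 CPM in LCDM (EPS) cells (5.45 ± 0.87, adjusted p = 0.00011), and 6.61 without K2. It was 2.21, 2.67, and 2.21 CPM in 4i/L/b cells (3.01 ± 1.16, adjusted p = 0.04) and 4.09, 2.54, and 1.88 CPM in t2iLGöY cells (3.37 ± 1.28, adjusted p = 0.038). Those calls were lost without J1 or any 4i/L/b library (adjusted p 0.054 to 0.12), and without J1, J2, K1, or any t2iLGöY library (adjusted p 0.0505 to 0.14), and without K2 the values were 4.13 and 4.45.

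The usual partner of CHRNA4, CHRNB2, lies outside the rule and is named after its values were seen. It was 3.42, 4.95, and 8.36 CPM in primed cells and 53.4, 45.2, and 50.3 CPM in LCDM (EPS) cells, 32.8, 38.7, and 37.2 CPM in t2iLGöY cells, 14.8, 16.4, and 18.2 CPM in TL2i cells, and 12.7, 16.3, and 14.1 CPM in 4i/L/b cells. No library of these groups overlapped the primed range. The log2 fold changes were 3.19 ± 0.25, 2.76 ± 0.28, 1.59 ± 0.32, and 1.36 ± 0.33 (adjusted p of 1.2e-07, 9.8e-07, 0.00088, and 0.0034), and they held without any single library. CHRNA7, which forms channels of its own, was called higher with the same 4 protocols by 2.74 to 3.46. It was not called in NHSM-v cells, at 4.06, 5.35, and 5.02 CPM (2.26 ± 1.04, adjusted p = 0.076), or in TL-CDK8i cells, at 3.33, 6.24, and 3.58 CPM. The libraries of both groups nevertheless lay above the highest primed library, at 2.57 CPM. The CHRNA7 call in LCDM (EPS) cells (adjusted p = 0.0036) held without any single library. The calls in 4i/L/b and TL2i cells were lost without any library of the protocol and that in t2iLGöY cells without its library 1 or 3 (adjusted p 0.058 to 0.11).

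CHRNA5, CHRNA3, and CHRNB4 encode subunits of one receptor of autonomic ganglia and are consecutive on chromosome 7 in the RefSeq order. They did not move together. CHRNB4 was 0, 0.242, and 1.12 CPM in primed cells and 14.4, 18.2, and 5.81 CPM in NHSM-v, 12.1, 13.6, and 8.89 CPM in t2iLGöY, and 6.15, 8.06, and 3.79 CPM in LCDM (EPS) cells. Its log2 fold changes were 5.04 ± 0.92, 4.94 ± 0.95, and 3.98 ± 1.07 (adjusted p of 0.00025, 0.00044, and 0.0059), and 5.72, 5.58, and 4.64 without J1. E-NHSM cells had no CHRNB4 count.

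CHRNA3 and CHRNA5 are named after their values were seen, as the neighbours of CHRNB4. CHRNA3 rose with the same 3 protocols, from 2.05, 7.76, and 10.5 CPM in primed cells to 25.1, 26.4, and 28.7 CPM in NHSM-v, 54.2, 79.7, and 51.7 CPM in t2iLGöY, and 37.5, 35.3, and 34.4 CPM in LCDM (EPS) cells (1.92 ± 0.36, 3.18 ± 0.34, and 2.36 ± 0.34, adjusted p of 0.00032, 1.4e-06, and 4.5e-05). CHRNA5 fell with all 7 protocols, from 26.2, 34.0, and 46.0 CPM in primed cells to 6.22, 8.33, and 7.49 CPM in TL2i cells at the lowest and to 20.9, 16.2, and 17.0 CPM in E-NHSM and 18.9, 16.6, and 20.7 CPM in NHSM-v cells at the highest. Its log2 fold changes ran from -2.25 ± 0.22 in TL2i (adjusted p = 1.3e-06) to -0.92 ± 0.20 in NHSM-v cells (adjusted p = 0.0011), and all 7 calls held without any single library. The 2 genes overlap in the RefSeq annotation, and whether reads were counted by strand is not given in the sources used here, so shared reads between them cannot be told apart.

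CHRNA9 and CHRNA10 encode the subunits of the receptor of cochlear hair cells. CHRNA9 was 1.17, 2.07, and 12.0 CPM in primed cells, the J libraries being at 5.92, 2.81, and 12.0 CPM and the K libraries at 1.20, 1.17, and 1.33 CPM. It rose to 18.7, 51.0, and 32.4 CPM in TL-CDK8i cells (3.07 ± 0.61, adjusted p = 0.0009) and had no count in NHSM-v cells (adjusted p = 0.0011). Taking 3 counts in each NHSM-v library, the primed mean of 4.07 CPM was at least 13.4-fold higher. The J libraries raised that mean, and the limit does not hold for the K libraries alone. Without J3 these 2 fitted values of 3.07 and -8.39 became 3.77 and -7.74. Those of NHSM-v cells, -8.39 and -7.74, were fitted against no NHSM-v count and are not measured fold changes. The fall in LCDM (EPS) cells (-2.64, adjusted p = 0.036) was lost without J1, J3, or any LCDM (EPS) library (adjusted p 0.054 to 0.11) and became -1.93 without J3.

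CHRNA10, near 0 in primed cells, had enough counts for a test only in 2 protocols that raised it, and it was called in both. It was 2.40, 2.31, and 3.75 CPM in 4i/L/b and 2.45, 2.33, and 2.40 CPM in TL2i cells (adjusted p of 0.0014 and 0.0022), with 4 counts in primed library K2 and none in the others. Its log2 fold changes of 5.33 and 5.19 became 7.76 and 7.91 without K2. CHRNA2 was 1.57, 1.86, and 1.91 CPM in TL2i cells, with 5 counts in J1 and none in the other primed libraries (4.21 ± 1.31, adjusted p = 0.016), 7.54 without J1, and the call was lost without TL2i library 2 or 3 (adjusted p 0.055 to 0.058). The values of 7.76, 7.91, and 7.54 were fitted with no primed count left and are not measured fold changes.

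Of the muscle-type subunit genes, CHRNA1 was called higher in 3 groups, at 13.0, 11.7, and 12.0 CPM in NHSM-v, 7.30, 7.29, and 9.05 CPM in 4i/L/b, and 7.91, 7.26, and 6.01 CPM in LCDM (EPS) cells, against 0, 0.104, and 2.74 CPM in primed cells. The log2 fold changes were 4.25 ± 1.02, 3.60 ± 1.12, and 3.5 ± 1.13 (adjusted p of 0.0022, 0.014, and 0.017). Without K1, the highest primed library, they became 6.04, 5.38, and 5.25, and the last pair of calls was lost without 4i/L/b library 3 (adjusted p = 0.054) or LCDM (EPS) library 1 (adjusted p = 0.057). CHRNB1 and CHRNE are named after their values were seen. CHRNB1 rose in TL-CDK8i (1.53 ± 0.33, adjusted p = 0.0016), TL2i (1.22 ± 0.34, adjusted p = 0.0087), and 4i/L/b cells (1.04 ± 0.38, adjusted p = 0.033, lost without K2 or 4i/L/b library 1 or 3 at adjusted p of 0.055 to 0.15).

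CHRNE, the ε subunit gene, had log2 fold changes of -2.43 in NHSM-v, -2.45 in 4i/L/b, -2.0 in TL2i, and -2.02 in t2iLGöY cells (adjusted p of 0.022, 0.0047, 0.014, and 0.021). The call was lost in NHSM-v cells without their library 1 or 3 (adjusted p 0.082 to 0.088), in TL2i cells without their library 2 or 3 (adjusted p 0.056 to 0.064), and in t2iLGöY cells without their library 2 or 3 (adjusted p 0.053 to 0.074). The NHSM-v value became -4.20 without NHSM-v library 2. CHRND and CHRNG, of the δ and γ subunits, were tested in 4 and 2 comparisons and not called. Of 9 skeletal muscle markers, MYOD1 was at or under 3 counts in every library, and DES, ACTC1, and TNNT1 alone had a mean of at least 1 CPM in some group. Their summed level was 258 to 309 CPM in primed, 68.8 to 81.3 CPM in NHSM-v, 464 to 482 CPM in 4i/L/b, 209 to 238 CPM in TL2i, 37.9 to 44.4 CPM in t2iLGöY, 57.0 to 67.9 CPM in LCDM (EPS), 425 to 515 CPM in E-NHSM, and 1559 to 2069 CPM in TL-CDK8i cells. The part of these markers in the results was not tested.

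**Figure D5:**
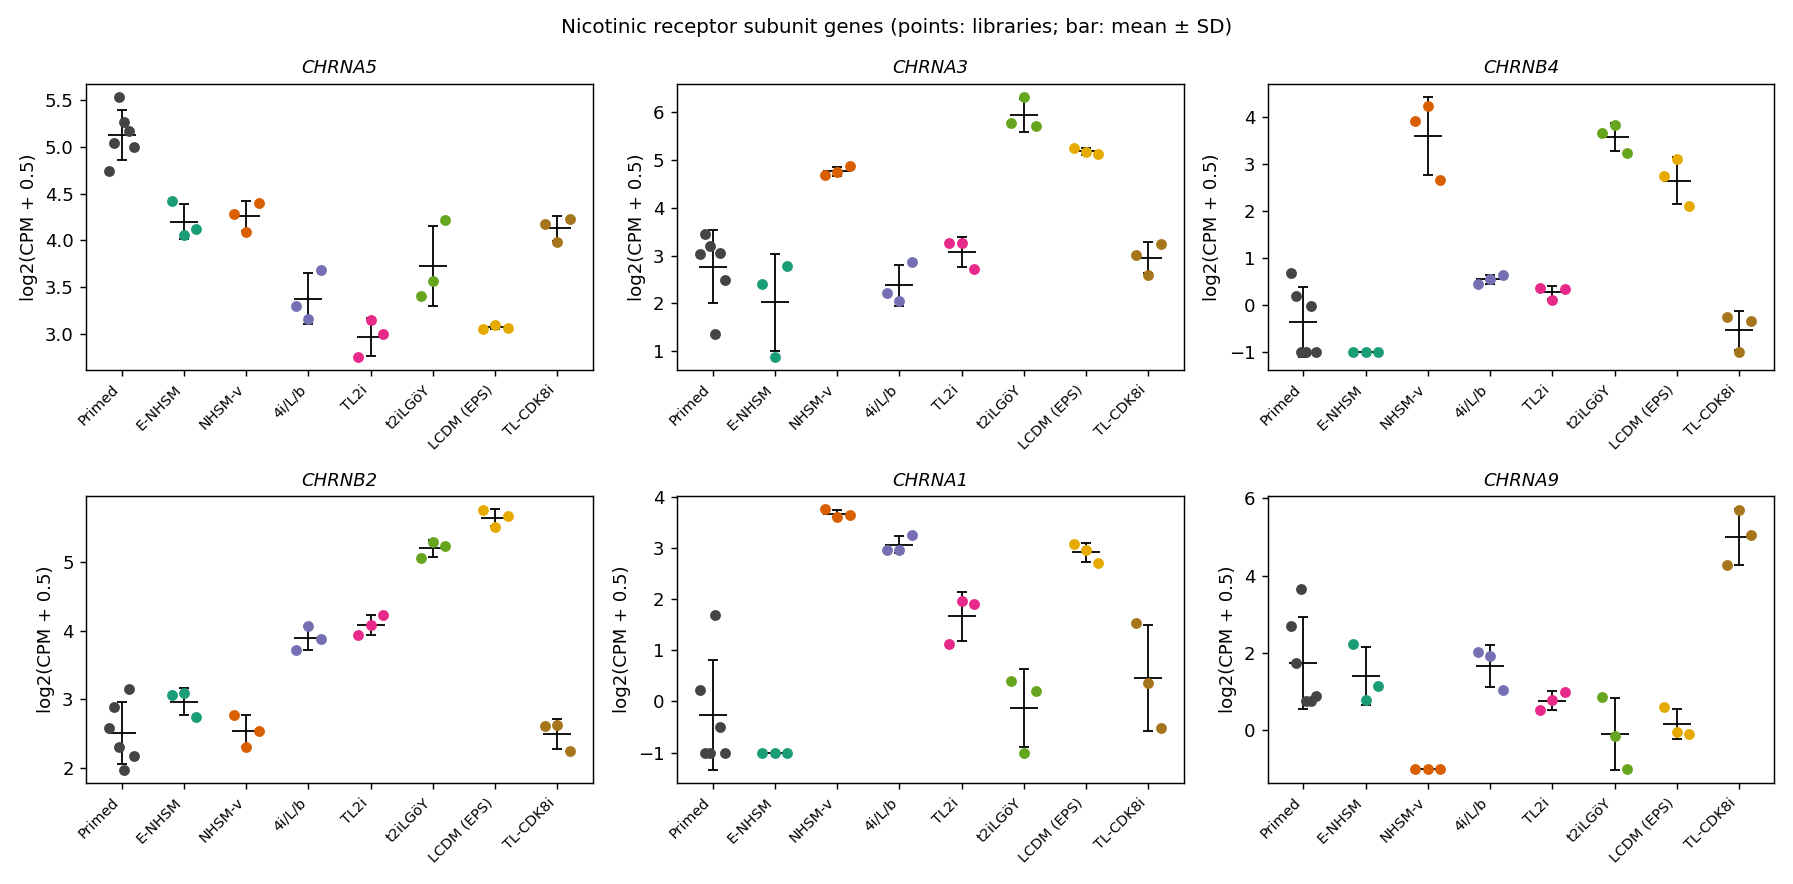
Levels of CHRNA5, CHRNA3, CHRNB4, CHRNB2, CHRNA1, and CHRNA9 as log2(CPM + 0.5), with 1 point per library and the mean ± SD of each group as a bar. CHRNA5 lies below all primed libraries in all 7 protocols, while CHRNA3 and CHRNB4 lie above them in NHSM-v, t2iLGöY, and LCDM (EPS) cells, and CHRNA9 is highest in TL-CDK8i cells.

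Receptors are assembled, placed, and supplied by other proteins. Of 18 genes for auxiliary subunits and assembly factors, between 12 and 15 were tested per protocol, and 1 to 6 were higher and 3 to 6 lower, where 11.1% to 28.2% of all genes were higher and 15.1% to 30.6% lower. CACNG4, an AMPA receptor auxiliary subunit, was higher with 6 protocols and reached 60.5 ± 4.0 CPM (SD) in NHSM-v cells, against 0.127 ± 0.310 CPM in primed cells (adjusted p = 1.1e-08), the E-NHSM value missing the threshold (adjusted p = 0.062). LHFPL4, which anchors GABA-A receptors, was lower with 5 protocols, from 9.93 ± 0.92 CPM in primed cells to 0.414 ± 0.397 CPM in NHSM-v cells (adjusted p = 3.5e-05). The 5 were those with a GABRB2 call, and in E-NHSM and TL-CDK8i cells LHFPL4 was 13.1 ± 4.1 and 9.83 ± 2.13 CPM, neither called.

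Of 29 genes for postsynaptic scaffolds and clustering proteins, 26 or 27 were tested, and 2 to 14 were higher and 3 to 9 lower, the extremes being 14 higher and 3 lower in t2iLGöY cells and 2 higher and 9 lower in E-NHSM cells. Of all genes, 27.1% were higher and 27.2% lower in t2iLGöY cells, and 11.1% and 15.1% in E-NHSM cells. SHANK1, a scaffold of glutamate synapses, was higher with 6 protocols, from 1.38 ± 1.07 CPM in primed cells to 93.9 ± 13.8 CPM in NHSM-v cells (adjusted p = 8.5e-09). CBLN1, the cerebellin that binds delta receptors, was lower with 6 protocols but rose in t2iLGöY cells from 35.3 ± 8.1 to 549 ± 95 CPM (adjusted p = 5.2e-11).

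Of 26 genes for the synthesis, degradation, and transport of transmitters, 20 to 24 were tested, and 6 to 11 were higher and 3 to 7 lower, against the same 11.1% to 28.2% and 15.1% to 30.6% of all genes. SLC6A11, a GABA transporter, fell with all 7 protocols, from 22.3 ± 3.0 CPM in primed cells to 12.0 ± 2.2 CPM in E-NHSM (adjusted p = 0.0064) and 0.0343 ± 0.0594 CPM in NHSM-v cells (adjusted p = 2.4e-09). SLC1A2, a glutamate transporter near 0 in primed cells, had enough counts for a test with 6 protocols only and was higher with each. It reached 32.2 ± 9.1 CPM in LCDM (EPS) cells, against 0.126 ± 0.171 CPM in primed cells (adjusted p = 3.8e-08).

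Of 9 genes for metabotropic GABA and muscarinic receptors and chloride transporters, 4 to 6 were tested, and no more than 3 were called in either direction with any protocol, against the same shares of all genes. GABBR2, a subunit of the GABA-B receptor, was lower with 6 protocols and higher in TL-CDK8i cells, at 58.5 ± 3.2 CPM against 15.5 ± 4.3 CPM in primed cells (adjusted p = 4.1e-06). SLC12A2, which brings chloride into the cell, was lower in E-NHSM cells, at 23.1 ± 3.4 CPM against 50.6 ± 9.8 CPM (adjusted p = 0.00014), and higher with the other 6, up to 152 ± 7 CPM in NHSM-v cells (adjusted p = 2.3e-07).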

How the data were processed

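The deposited tables hold raw counts of reads per gene symbol, which the authors made from 75 bp single reads of a directional poly(A) library. The submitters' processing notes name bcl2fastq, cutadapt, HISAT2, and HTSeq, without versions. The genome build, the annotation, and whether reads were counted by strand are not given in the sources used here, and counting by symbol leaves reads shared by overlapping genes uncertain. No column of per-sample values was left over (0).

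Counts were normalized by TMM and tested in R 4.3.3 with edgeR 4.0.16 (quasi-likelihood F test, filterByExpr, Benjamini-Hochberg adjustment over all genes tested, threshold 0.05). Each protocol (3 libraries) was compared with the 6 primed libraries in a fit of its own, and the 7 protocols were compared with one another in 1 fit of their 21 libraries. The script was tested on simulated data. Every adjusted p in the text is from these edgeR fits. In 36 pairs of libraries of the same group, the chi-square of the counts over its degrees of freedom was 3.98 to 29.8, so no pair agreed within sampling noise.

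Some genes are not reported here by name but are included in the counts of genes tested and called. The genes, lists, and tests were chosen with earlier results of these data known. Values are given for genes called at least once with a mean of at least 1 CPM in some group, up to 4 per family (6 for GABA-A and nicotinic) by absolute log2 fold change. Of each supporting list, up to 2 genes called one way with at least 5 protocols are named. Gene order is from RefSeq T2T-MMU8v2.0, where 63 of the 64 symbols matched. Alternatives were DESeq2 1.42.0, upper-quartile scaling, library totals alone, no filter, a stricter filter of 10 counts, an absolute log2 fold change of at least 1, 1 fit of all 8 groups, and leaving out each library. The primed J or K libraries alone were added after seeing the data.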

Additional observations from a re-analysis of the deposited data

Results flagged for a closer look

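Of 42 genes called against primed cells, 10 had 1 primed library that stood apart from the other 5 by Dixon's test. The libraries that stood high were J3 for GRIK1 (5.43 CPM) and GRIN2A (4.00 CPM), J1 for GRIN3A (2.35 CPM), GABRB2 (0.782 CPM), and CHRNA2 (0.558 CPM), K1 for CHRNA1 (2.74 CPM), and K2 for GRM8 (0.346 CPM), GABRG1 (0.276 CPM), and CHRNA10 (0.276 CPM). J1 stood low for GRM2 (2.23 CPM). In GRM8, GABRB2, GABRG1, CHRNA10, and CHRNA2 the other 5 libraries had no count, and the library that stood apart held 4 to 7. Chance gives such a library in about 1 in 20 groups of continuous values, a rate that does not apply to genes with counts this low, so the 10 of 42 cannot be read against it.

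In addition, 6 genes, GRM2 among them, were called higher with one protocol and lower with another, and each differed among the 7 protocols when primed cells were left out. The edgeR adjusted p of that comparison was 3.35e-13 for GRIA1, 1.8e-12 for GRIA3, 7.62e-08 for GRM2, 2.23e-10 for GRM7, 6.92e-09 for GABRQ, and 1.65e-10 for CHRNA9.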

How the results depend on the processing

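The number of receptor genes called moved by more than 1.5 times when all 8 groups entered 1 fit, to 15 in E-NHSM (from 7), 29 in t2iLGöY (from 19), and 23 in TL-CDK8i cells (from 14), and the cause was not tested. Leaving out 1 library at a time gave 3 to 11 calls in E-NHSM, 12 to 18 in NHSM-v, 12 to 23 in 4i/L/b, 11 to 22 in TL2i, 16 to 23 in t2iLGöY, 24 to 28 in LCDM (EPS), and 6 to 14 in TL-CDK8i cells, and 48 to 52 among the protocols. The count moved by more than 1.5 times in E-NHSM cells without J3 (11) or E-NHSM library 1, 2, or 3 (4, 4, and 3), in 4i/L/b cells without their library 3 (12), in TL2i cells without their library 2 or 3 (12 and 11), and in TL-CDK8i cells without K2 or K3 (9 each) or their library 1, 2, or 3 (9, 6, and 6). No call of a named gene reversed under any alternative. Of the calls of genes named here, 2 were lost with DESeq2, 1 with library totals alone, 8 without a filter, and none with upper-quartile scaling, with at least 10 counts in every library of a group (111 calls still tested), or with all 8 groups in 1 fit, while 885 of 1030 held when 1 library was left out. With J or K libraries alone as primed cells, an alternative chosen after seeing the data, 98 of 110 and 102 of 113 held. No paired analysis was possible against primed cells because their columns carry letters that the labels lack. Among the 7 protocols, with the replicate number as a replicate block, 49 genes differed, the same 49. Of the 21 protocol libraries, 3 correlated best with their own number, which cannot show whether same-numbered libraries shared more than a number. The scarcity of primed counts limits the fitted fold changes of genes near 0.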
